A study of Caenorhabditis elegans with 21 samples.

Results

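Short autosomal intervals are unnamed stretches of the Caenorhabditis elegans genome, listed by coordinates in a small RNA count table, that lie on chromosomes I to V, span less than 200 bases (end minus start) and carry at least 1 count over all libraries. The table held 34143 such stretches, of which 5152 carried a count and form the set described here, among 28149 features with a count and 75393 features in all. The other 28991 (84.9%) had no count in any library. Small RNA was sequenced from whole L4 larvae in 21 libraries: 9 of wild type, named A to I, and 3 each of a dpf-3 null mutant, of DPF-3 S784A, of mut-2(ne3370) and of mut-7(ne4255). All animals were raised at 15 °C with NA22 bacteria as food. All RNA was treated with an RNA 5′ polyphosphatase, so that small RNAs with a 5′ triphosphate could be ligated, and was made into libraries with the QIAseq miRNA kit. The labels name no allele for the dpf-3 null and do not say whether replicates were separate cultures, so p-values measure the spread between these samples, which may be technical.

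Most endogenous small interfering RNAs of worms are made by RNA-dependent RNA polymerases on a target transcript, run antisense to it and begin with a 5′ triphosphate. Their amplification takes place at a complex that needs MUT-7, an exonuclease-like protein, and uses MUT-2 (also called RDE-3), a nucleotidyltransferase that extends the 3′ ends of cut target RNA. The products are carried by worm-specific Argonaute proteins, and DPF-3 is a dipeptidyl peptidase known to trim the N termini of members of that family. Targets include pseudogenes, repeats and transposons outside annotated genes. piRNAs and fragments of ribosomal RNA arise by other routes.

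Depth set what could be seen. Counts in features ranged from 40693 (mut-2 A) to 583038 (wild type G) per library, and a count of 3 was worth 5.60 CPM in the deepest and 46.7 CPM in the shallowest, where CPM is the count scaled here to library size with TMM factors. Wild type fell into 2 sets, which the labels do not separate: libraries A to F, called the first set below, and libraries G to I, the second. Values are given for each set apart, and calls rest on all 9 libraries unless a set is named. Small RNA counts at dpf-3 ran from 5.27 to 12.4 CPM in its null mutant and from 61.6 to 141 CPM in wild type. Those at mut-7 were above wild type in mut-7 (558 to 657 against 181 to 278 CPM), and those at mut-2 overlapped wild type in mut-2 (0 to 15.6 against 3.89 to 34.4 CPM). Small RNA reads at a gene do not measure its mRNA.

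The short intervals were sparsely counted. Of the 5152, 2856 (55.4%) had exactly 1 count over 21 libraries, 451 had 10 or more and 65 had 100 or more. The 10 with the most counts held 38.5% of the 52578 counts and the single highest held 14.6%. Members had a median length of 129 bases (range from 10 to the limit), against 100 for short intervals without a count. At the length limit, the 244 members of 190 bases or more had a median of 2 counts and a highest total of 508, and the 232 counted intervals in the next 10 bases of length, just outside, had a median of 2 and a highest total of 427.

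Exonic intervals were counted most often. Of short intervals that overlap an exon 30.5% were counted, against 15.2% of intergenic and 13.8% of intronic ones. Those shorter than 50 bases were counted in 6.81% of cases, those of 50 to 99 bases in 11.3% and those of 100 bases or more in 19.4%. An interval that touched or overlapped another interval was counted in 10.0% of cases. Intergenic members held 29828 counts, intronic members 12525 and exonic members 10225.

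Strand patterns differed between gene types. Where the only exon overlapped was of a protein-coding gene, intervals on the gene's own strand were counted in 203 of 488 cases with 5341 counts, and those on the other strand in 108 of 454 cases with 437 counts. Intervals over pseudogene exons had 1733 counts on the same strand (21 of 58 intervals) and 154 on the other (10 of 58). Intervals over piRNA genes had the reverse order, with 189 counts on the same strand (30 of 69 intervals) and 681 on the other (25 of 43). Of the 681, 216 and 143 fell to the members opposite 21ur-9379 and 21ur-1051. For pseudogene and piRNA exons, the strand compared is that of an overlapping protein-coding gene where there was one. Intervals with genes to compare on both strands are left out of these contrasts. They had 969 counts (8 of 27 intervals) over coding exons, 2 (1 of 1) over pseudogene exons and 342 (7 of 11) over piRNA genes. The strand setting used for counting is not given in the sources used here, so the strand of a member cannot be read as the strand of the RNA.

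**Figure D1:**
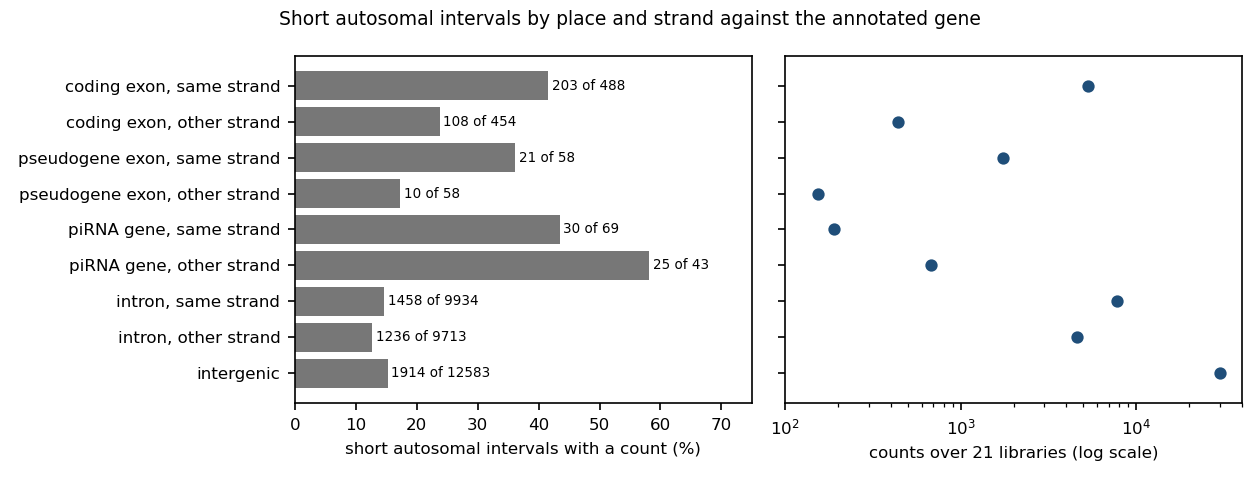
Short autosomal intervals by the annotated feature they overlap and by strand, taken against an overlapping protein-coding gene where there was one. Bars show the percentage of intervals with a count, with numbers of intervals beside them, and points show counts over 21 libraries on a log axis. Coding exons had 5341 counts on the same strand and 437 on the other, while piRNA genes had 189 and 681. Intervals with genes to compare on both strands are not shown.

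As a share of feature counts, the short intervals behaved unlike longer ones in mut-2. They held 1.26% ± 0.0601 (SD, n = 6) of feature counts in the first wild-type set and 0.851% ± 0.0117 (n = 3) in the second set. The dpf-3 null held 1.07% ± 0.0837, DPF-3 S784A 1.23% ± 0.0309 and mut-7 1.23% ± 0.124 (n = 3 each). In mut-2 it was 2.82% ± 0.406, with 2.52% in the lowest library against 1.37% in the highest wild-type library. Intervals of at least 1000 bases went the other way, from 15.1% in the first set and 11.6% in the second set to 1.66% in mut-2, with 3.69% and 4.76% in the dpf-3 null and DPF-3 S784A and 1.10% in mut-7. Taken over all reads, including those in no feature, the short intervals held 0.390% ± 0.0150 in wild type (n = 9), against 0.274% in mut-2, 0.170% in mut-7 and 0.224% and 0.219% in the dpf-3 null and DPF-3 S784A. In these whole-animal samples, fewer cells of a type and less RNA per cell cannot be told apart.

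The high mut-2 share came from a few members. A filter on low counts (edgeR's filterByExpr) left 44 of the 5152 (0.854%) for testing, and these held 57.3% of the counts. Their share of feature counts was 0.590% ± 0.154 in wild type (n = 9) and 2.43% ± 0.372 in mut-2. The 5108 other members held 0.531% ± 0.0545 in wild type and 0.392% ± 0.0568 in mut-2, with 0.402%, 0.448% and 0.330% in the dpf-3 null, DPF-3 S784A and mut-7. For 10 members called higher in mut-2, described below, the share of all short-interval counts was 21.8% ± 3.24 in the first set and 11.6% ± 1.16 in the second. The dpf-3 null had 45.9% ± 4.80, DPF-3 S784A 48.1% ± 1.24, mut-7 68.1% ± 2.93 and mut-2 83.9% ± 1.99. These 10 were chosen for their rise in mut-2 in the same libraries, so their share there describes the sum and tests nothing.

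**Figure D2:**
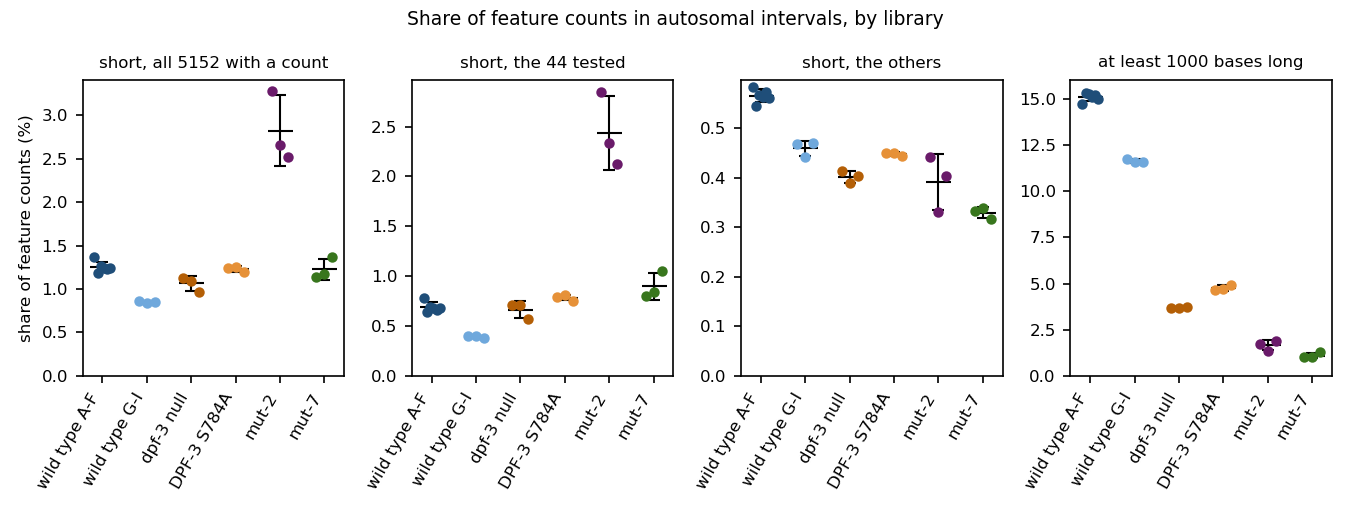
Percentage of feature counts in short autosomal intervals (all, the 44 tested and the rest) and, for contrast, in autosomal intervals of at least 1000 bases. Points are libraries and black marks are means ± SD. The mut-2 libraries stand above all others for the tested short intervals and near the bottom for the long ones.

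The number of different short intervals seen was lower in mut-7. With every library thinned to 40693 feature counts, the mean number seen was 232 ± 6.14 in the first wild-type set (n = 6), and 191 ± 3.83 in the second (n = 3). DPF-3 S784A had 189.8 ± 2.19, the dpf-3 null 176 ± 3.96, mut-2 167 ± 28.2 and mut-7 132 ± 3.34 (n = 3 each). Unthinned means were 986 and 1015 in the wild-type sets and 362, 583, 178 and 224 for those 4 mutants. The thinned mut-7 libraries lay below every other library, and those of the second set overlapped DPF-3 S784A and the highest mut-2 library.

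Each genotype was tested against wild type with edgeR's quasi-likelihood test over 5038 features, with Benjamini-Hochberg adjustment over all of them and a call at an adjusted p below 0.05. Of the 44 tested members, 26 were lower and 0 higher in the dpf-3 null, where 23.1% of all features tested were lower and 13.1% higher. At an unadjusted p below 0.05 the null had 1 higher, and DESeq2 called 0 higher. In DPF-3 S784A 25 were lower (20.9% of all features) and 1 higher (8% of all features). In mut-2 31 were lower (31.2% of all) and 10 higher (16% of all), and in mut-7 30 were lower (33.2% of all) and 5 higher (23% of all). Their median log2 fold changes were -1.99, -2.06, -4.22 and -5.58, against 0.17, 0.04, -0.02 and 0.11 over all features. A member could pass the filter through wild type alone, which has 9 libraries and the greatest depth, so these counts describe members that could fall and are not a result about short intervals at large. A member low in wild type could pass only through mutant libraries where it was high, so the rises have the same limit. Scaling to feature count totals in place of TMM moved the median of all features to 0.76, 0.59, 1.18 and 1.35 and gave 23 lower and 9 higher, 22 and 10, 29 and 13, and 30 and 13 in the mutants in the same order. Over all features this scaling gave 20.3% lower and 43.4% higher, 17.8% and 30.8%, 25.6% and 50.3%, and 26.6% and 58.2%.

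By pattern, 25 of the 44 were lower in all 4 mutants, 4 were lower in mut-2 and mut-7 alone, 1 was lower in mut-2 alone and 1, near srh-171 and named after its values were seen, in every mutant but DPF-3 S784A. Another 5 were higher in mut-2 alone, 4 in mut-2 and mut-7, 1 in mut-2 and DPF-3 S784A and 1 in mut-7 alone, and 2 had no call. A pattern says which comparisons passed the threshold and is no test that mutants differ. How many of all features tested share each pattern was not worked out. Group ranges separated in most cases: 24, 23, 30 and 30 members lay below every wild-type library in the dpf-3 null, DPF-3 S784A, mut-2 and mut-7, and 0, 2, 10 and 2 lay above every one. No count at all was found for 1, 2, 12 and 19 of the 44. These separations and absences were not counted over all features, so they describe the 44 alone.

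**Figure D3:**
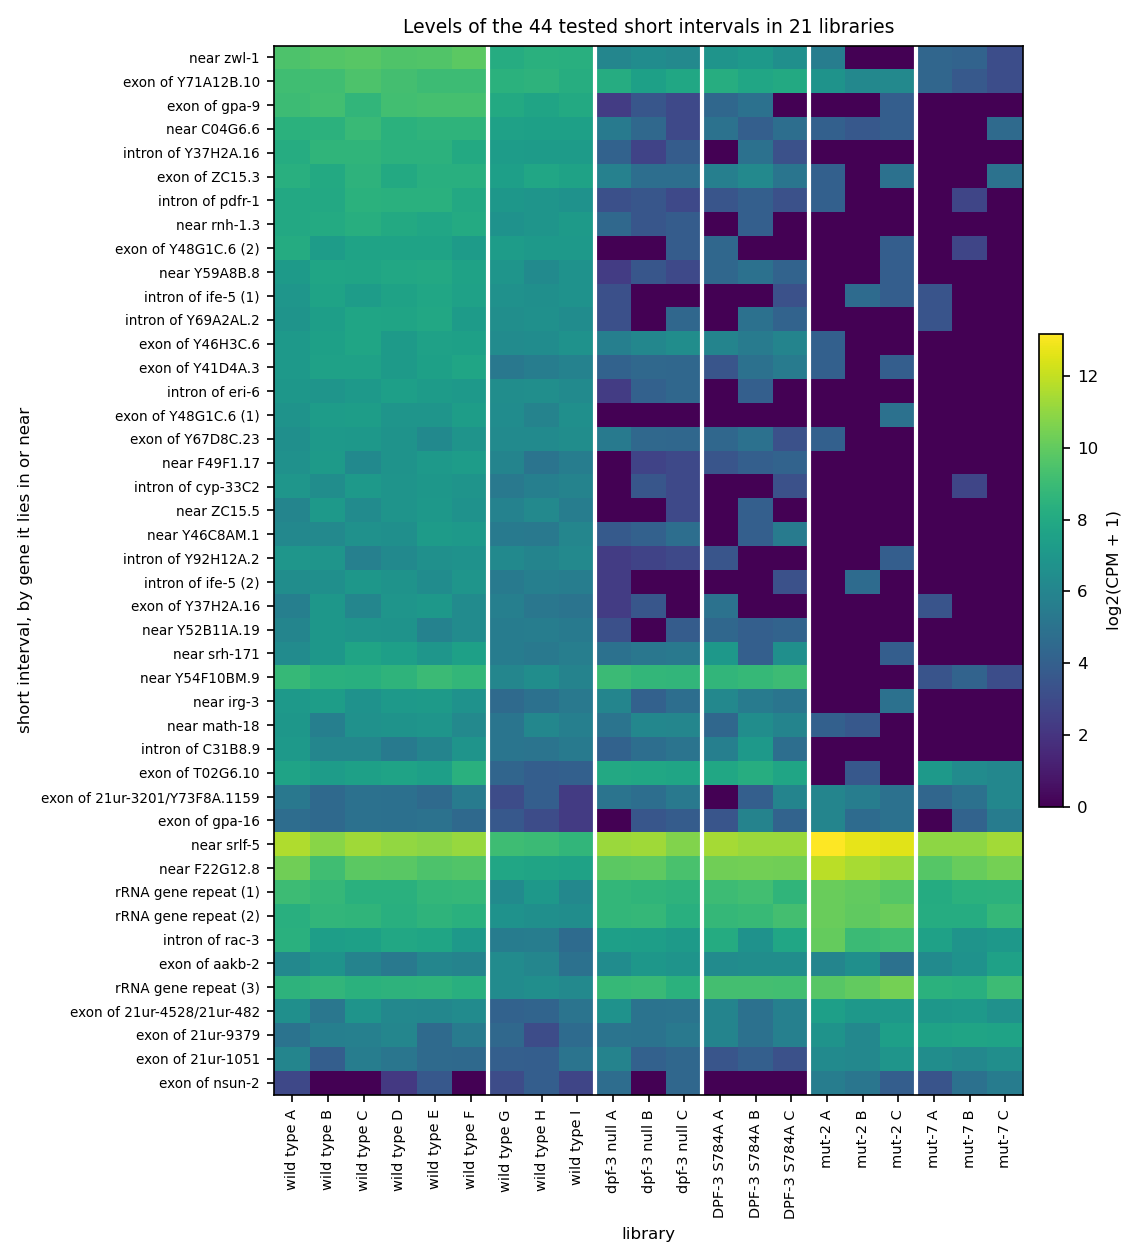
Levels of the 44 tested short intervals as log2(CPM + 1), 1 row per interval named by the gene it lies in or near and 1 column per library. The upper rows are bright in wild type and dark in both mut genotypes, where 12 and 19 intervals had no count, and the lower rows are brightest in mut-2.

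The 25 members lower in all 4 mutants lay in exons (9), introns (8) and between genes (8), and their wild-type means ran from 75.2 to 644 CPM. The most abundant was I:2411772-2411943 on the plus strand (ce11, as are all coordinates here), 1773 bases from zwl-1, which encodes a kinetochore protein. Its levels ran from 712 through a median of 789.7 to 943 CPM in the first set and were 286, 329.6 and 322 in the second set. The dpf-3 null had 66.3, 84.3 and 73.1, DPF-3 S784A 112, 133 and 94.7, mut-2 46.7, 0 and 0 and mut-7 19.2, 17.4 and 7.64. Every mutant library was below every wild-type library, with log2 fold changes of -3.09 (SE 0.45, adjusted p = 7.08e-06), -2.51 (SE 0.46, adjusted p = 0.000165) and -5.37 (SE 0.60, adjusted p = 9.98e-08) in the dpf-3 null, DPF-3 S784A and mut-7. In mut-2 it rested on 3 counts, a level 39.2-fold below wild type (95% interval 13.4 to 190.1). zwl-1 itself was not lower in any mutant and was higher in mut-2 and mut-7 (log2 fold changes 0.78 and 1.02, adjusted p = 0.0207 and 0.000956 by edgeR).

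A member within an exon of gpa-9, a G protein alpha subunit gene, fell far in each mutant (V:12647415-12647568, minus strand, the strand of the gene). It stood at 406 to 623 CPM (median 583) in the first set and at 254, 206 and 260.3 in the second set. The dpf-3 null had 4.15, 10.5 and 6.65, DPF-3 S784A 20.3, 29.6 and 0, mut-2 0, 0 and 14.6 and mut-7 no count in 3 libraries. Every mutant library lay below every wild-type library. The log2 fold change was -5.88 (SE 0.62, adjusted p = 2.2e-07) in the dpf-3 null and -4.89 (SE 0.64, adjusted p = 5.25e-06) in DPF-3 S784A. Each rests on only 4 counts in the mutant, so its size is not precise. Mut-2 held 1 count, 86.0-fold below wild type (95% interval 15.4 to 3399), and mut-7 was at least 53.2-fold lower, taking 3 counts over the group as the floor. Such intervals and bounds cover counting error only. The row of gpa-9 itself fell by 2.35 in the dpf-3 null and by 6.78 in mut-2 on the log2 scale.

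Y48G1C.6 held a pair of members with almost complete loss, both on its own strand in its exons and overlapping mtm-10 on the other strand. I:85296-85362 had 107 to 162 CPM (median 135) in the first set and 84.1, 58.0 and 95.2 in the second set. It had no count in the dpf-3 null, DPF-3 S784A or mut-7, at least 20.4-fold, 9.91-fold and 14.3-fold lower, and 2 counts in mut-2. I:86089-86176 had 147 to 277 CPM (median 199.8) in the first set and 153, 138 and 132 in the second set, with 2, 2, 1 and 1 counts in the 4 mutants. Y48G1C.6 as a gene row had 504.9 ± 59.9 and 333 ± 21.9 CPM in the wild-type sets, 6.28 ± 5.55 in the dpf-3 null and 0 in mut-7.

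Introns held other members of the same kind. In pdfr-1, the receptor gene for the PDF neuropeptides, III:6648376-6648566 had 292 ± 46.9 CPM in the first set and 115 ± 11.1 in the second set, against 8.49 ± 1.95 in the dpf-3 null (log2 -4.63, SE 0.57, adjusted p = 7.09e-07). The null value there rests on 5 counts. In eri-6, which encodes a helicase of the endogenous small RNA pathways, I:4467100-4467296 had 140.2 ± 20.4 and 84.7 ± 6.51 CPM in the wild-type sets and 13.3 ± 8.19 in the dpf-3 null (log2 -3.22, SE 0.48, adjusted p = 1.99e-05). It had 1 count in DPF-3 S784A and none in either mut genotype, at least 8.19-fold lower in mut-2 and 15.2-fold in mut-7. In the pseudogene Y37H2A.16, V:18119566-18119706 had 342 ± 56.2 and 152 ± 4.56 CPM in the wild-type sets, 11.7 ± 5.82 in the dpf-3 null and no count in mut-2 or mut-7. Levels of each of these 3 members were below every wild-type library in each mutant.

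Gene and interval did not always move together. Of 12 genes that hold a tested member and were tested themselves, 8 were lower and 0 higher in each dpf-3 genotype, and 9 were lower and 2 higher in each mut genotype. Over all gene rows tested, 16.8%, 14.7%, 24.9% and 27.0% were lower and 14.4%, 8.72%, 17.4% and 25.2% higher in the dpf-3 null, DPF-3 S784A, mut-2 and mut-7. The exception with the most members was ife-5, which encodes a cap-binding protein of the eIF4E family. Its intronic member II:12282710-12282794 had 119.6 to 226 CPM (median 188) in the first set and 101, 94.2 and 103 in the second set, and it had 2, 1, 3 and 1 counts in the dpf-3 null, DPF-3 S784A, mut-2 and mut-7. The second, II:12283058-12283180, had 103 ± 16.1 and 46.1 ± 4.83 CPM in the wild-type sets and 1, 1, 2 and 0 counts. Both lay below every wild-type library in every mutant. The longer interval that overlaps the first and abuts the second fell as well, by 3.77 in the dpf-3 null and by 4.91 in mut-2 on the log2 scale. The row of ife-5 did not pass the test in the dpf-3 null (log2 -0.03, adjusted p = 0.956) or in DPF-3 S784A (-0.12, adjusted p = 0.881) and rose in mut-2 (1.55, adjusted p = 0.000836, edgeR).

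Longer neighbours were mostly lower, as were longer intervals at large. Of 10 intervals of 200 bases or more that were the nearest such neighbour of a tested member and were tested themselves, 9, 8, 10 and 9 were lower in the dpf-3 null, DPF-3 S784A, mut-2 and mut-7 and 0 were higher. Over all tested autosomal intervals of at least 200 and under 1000 bases the shares lower were 78.9%, 72.5%, 85.9% and 85.9%, and for those of at least 1000 bases 86.8%, 84.3%, 94.2% and 95.5%. One of them, 1769 bases from the member inside the pseudogene rac-3, was called lower in all 4 mutants and had no count in mut-2, while that member rose in mut-2. The annotated pseudogene T02G6.10 held I:11824908-11825048, a member named after its values were seen, and the interval 40 bases from it fell by 4.32 in mut-2 (log2, adjusted p = 0.00183), with no call at 0.52 in the dpf-3 null or at -1.04 in mut-7 (adjusted p = 0.468 and 0.158). The member itself had 206 ± 63.9 CPM in the first set and 16.2 ± 2.18 in the second. Levels were 249, 232 and 213 CPM in the dpf-3 null, while DPF-3 S784A had 248 ± 42.3 and mut-7 135, 81.4 and 68.8. It was called lower in mut-2 alone, on 1 count in 3 libraries, and against the second set that fall was not called (adjusted p = 0.202).

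A group of 4 members was lower in mut-2 and mut-7 with no call in the dpf-3 genotypes. The clearest was III:2295114-2295194, on the plus strand 134 bases from Y54F10BM.9. It ran from 323 through 399 to 509 CPM in the first set and was 65.4, 86.9 and 58.3 in the second set. The dpf-3 null had 509.9, 427 and 412 and DPF-3 S784A 406, 459 and 534. In mut-2 it had no count, at least 16.5-fold below wild type and 4.90-fold below the second set, and in mut-7 it had 9.62, 17.4 and 7.64 CPM (log2 -4.47, SE 0.93, adjusted p = 0.00048). Both dpf-3 genotypes lay within the first set or just above it and above all of the second, and every mut-2 or mut-7 library was below each wild-type library. Y54F10BM.9, on the opposite strand, was lower in all 4 mutants, with log2 fold changes of -1.67 and -1.93 in the dpf-3 genotypes (adjusted p = 3.16e-05 and 2.62e-05). The other 3, named after their values were seen, lie near irg-3 and math-18 and in an intron of C31B8.9. None had a count in mut-7, and the mut-2 libraries had 2, 2 and 0 counts in all. Near irg-3 the wild-type sets had 130 ± 22.2 and 30.1 ± 8.28 CPM. The dpf-3 null had 34.9 ± 24.3 there and DPF-3 S784A 49.9 ± 18.9. Near math-18 the same groups had 95.4 ± 28.0, 51.0 ± 17.6, 56.0 ± 19.8 and 56.4 ± 34.4. In C31B8.9 they had 79.5 ± 34.2, 35.7 ± 4.47, 25.4 ± 8.36 and 69.9 ± 56.2. Means of both dpf-3 genotypes were thus below that of the first set, and a missing call does not show that these members were spared.

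The member with the most counts of all rose in mut-2. IV:12925373-12925435, on the minus strand between genes and 431 bases from srlf-5, ran from 1817 through 2190.4 to 3167 CPM in the first set and was 538, 511 and 412 in the second set. The dpf-3 null had 2346, 2539.7 and 1622, DPF-3 S784A 2717, 2338 and 2368, and mut-7 1983, 1982 and 2583. The mut-2 libraries had 9304, 6556 and 6186. All 3 mut-2 libraries were above every other library, and the other mutants overlapped the first set and lay above the second set. The log2 fold change in mut-2 was 2.12 (SE 0.42, adjusted p = 0.0002), and values of 0.37, 0.56 and 0.37 for the dpf-3 null, DPF-3 S784A and mut-7 were not called (adjusted p = 0.552, 0.392 and 0.495). srlf-5 had no count in any library.

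I:13148803-13148917, on the minus strand 2350 bases from the pseudogene F22G12.8, was likewise highest in mut-2. It ran from 559.7 through 843 to 1303 CPM in the first set and was 224, 210.1 and 194 in the second. DPF-3 S784A had 1298, 1346 and 1266 and the dpf-3 null 937, 948 and 671. The mut-2 libraries had 3594, 2780.0 and 2232 and the mut-7 libraries 847, 1104 and 1391. Mut-2 was again above all others, by a log2 fold change of 2.16 over wild type (SE 0.40, adjusted p = 0.000113). Another member, IV:16312640-16312701 in an intron of the annotated pseudogene rac-3, had 212 ± 66.9 and 38.4 ± 13.1 CPM in the wild-type sets and 713 ± 313 in mut-2 (log2 2.26, SE 0.50, adjusted p = 0.000796). Its mut-7 libraries, at 183, 110.4 and 129.9 CPM, lay between the wild-type sets or within the first set.

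A further 3 members that rose in mut-2 lie among the ribosomal RNA genes at the right end of chromosome I, all on the minus strand, opposite to those genes. I:15061534-15061702 and I:15068731-15068899 each end 381 bases before an rrn-1 gene (the small subunit rRNA) and start 7197 bases apart, and I:15071824-15071991 begins 791 bases after the last rrn-1 gene. Single libraries of the 3 members ran from 314 to 516 CPM in the first set, and from 69.9 to 130.4 in the second. They ran from 319 to 495 in the dpf-3 null and from 279 to 519.6 in mut-7. DPF-3 S784A reached higher, at 396 to 608, and mut-2 highest, at 832 to 1371. Mut-2 was above every wild-type library for each, with log2 fold changes of 1.76, 2.05 and 2.05 (SE 0.42, 0.37 and 0.41; adjusted p = 0.00148, 7.15e-05 and 0.000275). The last of the 3 was also called higher in DPF-3 S784A (608, 607 and 586 CPM; log2 1.19, SE 0.43, adjusted p = 0.0423), a call that was lost in 20 of 21 fits that each left out 1 library. Ribosomal RNA genes lie in near-identical repeats and the handling of reads with several positions is not given, so counts may be split between the copies and these are not 3 independent loci.

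**Figure D4:**
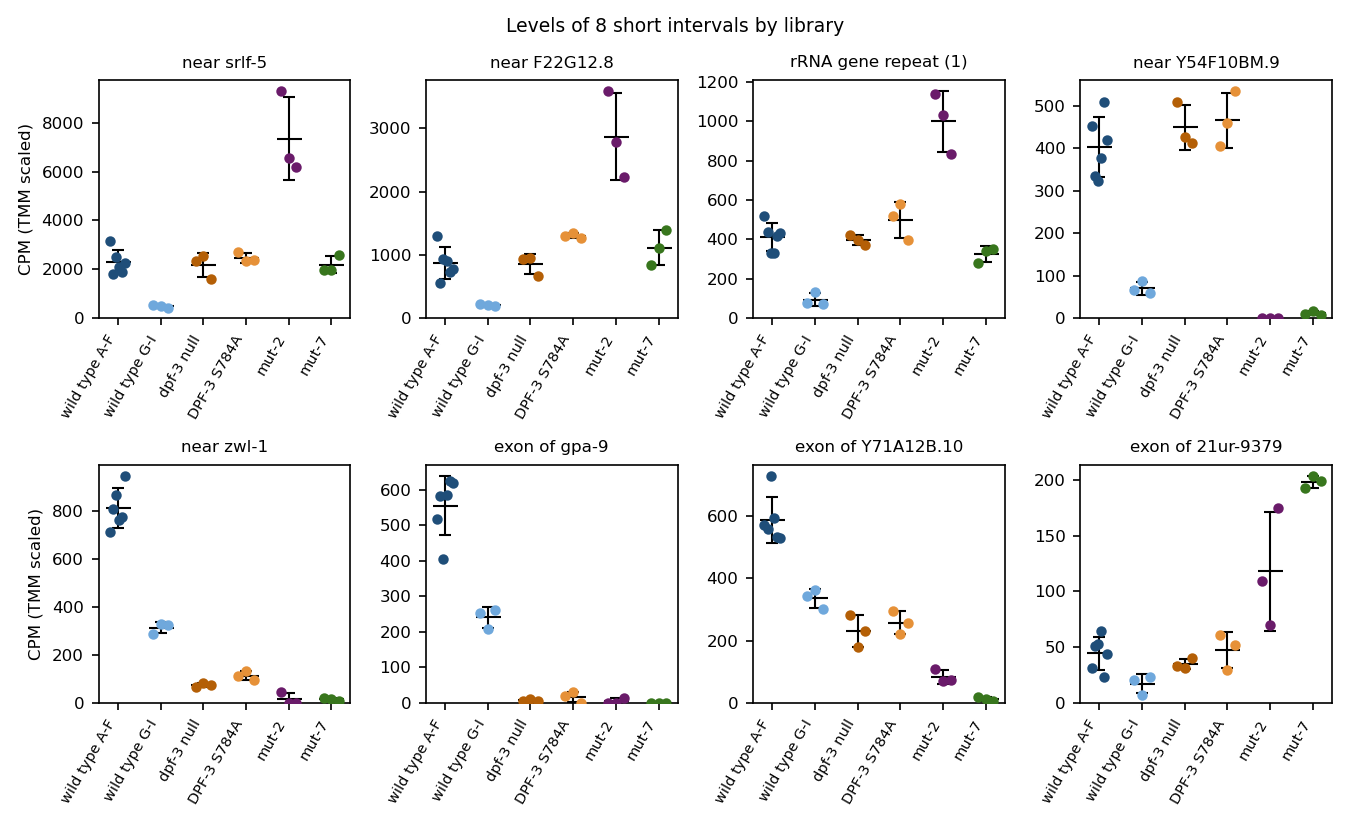
Levels in CPM of 8 short intervals in each library, with means ± SD in black. The upper row shows intervals near srlf-5, near F22G12.8, in the ribosomal RNA repeat and near Y54F10BM.9, and the lower row intervals that fell in all mutants and, at the right, one over the piRNA gene 21ur-9379, which was highest in mut-7 (192 to 203 CPM).

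Of 4 tested members over piRNA genes, all on chromosome IV, 3 rose in both mut genotypes, and 1 over 21ur-3201 had no call in any mutant. Members low in wild type could pass the filter through the very libraries in which they rose. This count is thus no result about piRNA genes at large. IV:6189598-6189640, opposite in strand to 21ur-9379, had 22.9 to 64.2 CPM (median 47.5) in the first set, and 20.5, 7.24 and 23.3 in the second. The mut-2 libraries had 109, 69.5 and 175 and the mut-7 libraries 192 to 203. Both mut genotypes lay above every wild-type library, by log2 fold changes of 1.79 (SE 0.43, adjusted p = 0.00142) and 2.56 (SE 0.35, adjusted p = 1.39e-06). The mut-2 call was lost without mut-2 C (1.34). The dpf-3 null and DPF-3 S784A, at 34.9 ± 4.39 and 47.4 ± 16.1 CPM, overlapped wild type. IV:14100296-14100350, opposite to 21ur-1051, had 34.2 ± 18.2 and 20.8 ± 10.6 CPM in the wild-type sets, and 88.0 ± 25.2 and 82.7 ± 11.5 CPM in mut-2 and mut-7. It was called higher in both (log2 1.58 for mut-2, adjusted p = 0.00601 and 0.00292 by edgeR). The mut-2 call of this member did not hold with scaling to all reads (log2 0.95), without a filter (1.11), with the replicate block (1.08) or without mut-2 C (1.29), and the mut-7 call did not hold without a filter (1.06). The replicate block, a term for each replicate letter, compared the mutants with wild type A to C alone. A further one, IV:16640196-16640236 over 21ur-482 and 21ur-4528, is named after its values were seen: its levels were 77.3 ± 25.6 CPM in the first set, 22.6 ± 9.01 in the second, 143 ± 24.2 in mut-2 and 119 ± 17.9 for mut-7, and only mut-2 stood above every wild-type library.

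Low members gave weaker cases. I:1211131-1211316, in an exon of nsun-2, an RNA methyltransferase gene, was called higher in mut-2 and mut-7 (log2 2.22 and 2.09, adjusted p = 0.0336 and 0.0154) on 7 and 12 counts. Its wild-type mean was 5.46 CPM, so it could pass the filter only through mutant libraries where it was high. Both calls were lost without a filter on low counts (log2 1.73 and 1.64) and with scaling to all reads (1.48 and 1.89). The first was also lost without mut-2 A (1.88) or B (2.16), and the second without mut-7 B (2.10) or C (1.64). nsun-2 as a gene row rose as well, with log2 fold changes of 1.57 and 1.53. The member in an exon of aakb-2 (a subunit gene of the AMP-activated kinase), named after its values were seen, was called in mut-7 alone (122 ± 55.2 CPM against 66.7 ± 23.1 and 58.2 ± 26.3; log2 0.97, SE 0.32, adjusted p = 0.014), and its mut-7 libraries overlapped wild type.

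The wild-type sets differed at these intervals. In a fit with wild type as 2 sets, 39 of the 44 were lower in the second set than in the first set and 0 higher, also at an unadjusted p below 0.05, where 33.6% of all features were lower and 17.8% higher, and the median log2 fold change was -1.17 (-0.13 over all features). Against the first set alone, the dpf-3 null had 30 members lower and 1 higher (27.3% and 21.7% of all features), DPF-3 S784A 27 and 3 (24.7% and 11%), mut-2 31 and 10 (32.8% and 19%) and mut-7 32 and 6 (34.6% and 29%). Against the second set alone, the dpf-3 null had 24 lower and 11 higher (28.4% and 25.2%), DPF-3 S784A 20 and 11 (25.2% and 18.3%), mut-2 29 and 12 (33.8% and 18.3%) and mut-7 30 and 13 (35.5% and 26.4%). The member near srlf-5 shows the split: its log2 fold change in the dpf-3 null was -0.06 against the first set and 2.17 against the second set, and in mut-2 it was 1.68 and 3.91. The fall at the gpa-9 member was called against both sets, at -6.21 and -5.03 in the dpf-3 null. Of the falls called against all wild-type libraries, 2 of 26 in the dpf-3 null, 5 of 25 in DPF-3 S784A, 2 of 31 in mut-2 and 0 of 30 in mut-7 were not called against the second set alone. They include the members of Y71A12B.10 and Y41D4A.3 in DPF-3 S784A (-0.34 and -0.71, adjusted p = 0.158 and 0.281), of Y46H3C.6 in both dpf-3 genotypes (-0.47 and -0.68, adjusted p = 0.148 and 0.139) and near srh-171 in the dpf-3 null (-0.39, adjusted p = 0.407). The others are the mut-2 falls of T02G6.10 and near irg-3 and the DPF-3 S784A falls near Y46C8AM.1 and Y52B11A.19.

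**Figure D5:**
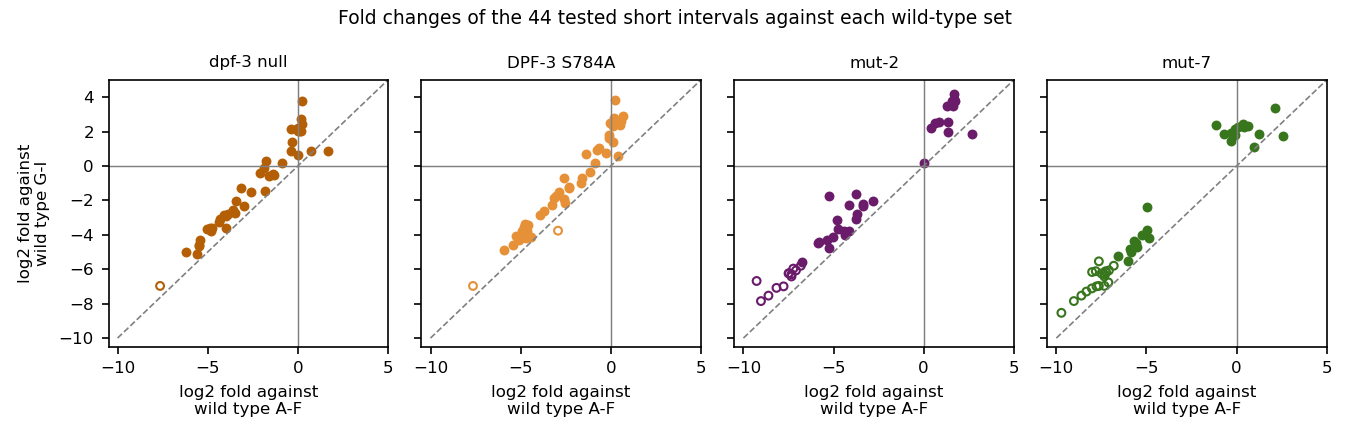
Log2 fold changes of the 44 tested short intervals against the first wild-type set (horizontal) and against the second wild-type set (vertical), 1 panel per mutant. Open circles had no count in the mutant, so that their fitted value is not a measured size, and the dashed line marks equal values. Nearly all points lie above that line, and 11, 11, 12 and 13 members were called higher against the second set.

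Between the dpf-3 null and DPF-3 S784A no member was called by edgeR (0.0397% of all features lower and 0% higher), 1 passed an unadjusted p of 0.05, and DESeq2 called 0. With wild type fitted as 2 sets, which lowers the spread, 1 was called (2.18% of all features lower and 0.595% higher). That was I:13148803-13148917 near F22G12.8, lower in the null by 0.59 (log2, adjusted p = 0.0243). A missed threshold does not show that the 2 genotypes act alike.

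Between mut-2 and mut-7 a single member was called (0.397% of all features higher in mut-2 and 0.457% lower). It was I:13957885-13958003, in an exon of Y71A12B.10 and on its strand, with 530.3 to 729 CPM (median 566) in the first set and 344, 362 and 301 in the second set. DPF-3 S784A had 294, 222 and 258, the dpf-3 null 282, 179 and 233, mut-2 109, 69.5 and 73.0 and mut-7 19.2, 11.6 and 7.64. All mutants were below every wild-type library, and every mut-2 library was above every mut-7 library (log2 2.68, SE 0.57, adjusted p = 0.0209, edgeR). The call was lost without mut-2 A or C and without mut-7 A, B or C. With wild type as 2 sets, 8 members were called between the genotypes, 7 of them higher in mut-2 (2.84% of all features, with 1.97% lower). The 6 called higher in mut-2 with no call in mut-7 were among these 7, with log2 differences of 1.34 to 2.35. They were sorted out by calls in the same libraries, so a difference in this direction was largely set in advance. A missing mut-7 call rests on all wild-type libraries. Near srlf-5, mut-7 overlapped the first set but, at 1982 to 2583 CPM, lay above the second set (412 to 538).

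Genes of the small RNA pathways themselves, a list of 40 names from general knowledge of the field chosen with results of these data known, were not called lower in either dpf-3 genotype. Of 33 tested, 0 were lower and 11 higher in the dpf-3 null, and DPF-3 S784A had 0 lower and 7 higher. In mut-2 6 were lower and 6 higher and in mut-7 8 and 8. For comparison, the shares of all features called lower were 23.1%, 20.9%, 31.2% and 33.2% and those called higher 13.1%, 8%, 16% and 23%, with the mutants in the same order.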

How the data were processed

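The authors deposited a table of raw counts per feature, whole numbers for 21 small RNA libraries, with genes named by identifier and intervals by coordinates. Per the submitters' processing notes, cutadapt 2.3, Bowtie 1.2.3, SAMtools 1.9, HTSeq 0.11.2 and the ce11 build were used. Their roles and order, the strand setting, the source of the intervals and the handling of reads with several positions are not given in the sources used for this work. Total reads per library, including those in no feature, ran from 366911 to 1448677. Reads in no feature (53.1% to 90.7% of a library) and ambiguous reads (0.011% to 0.110%) were left out of library sizes and tests.

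Coordinates were compared with the Ensembl annotation of WBcel235, the same assembly as ce11, which gave gene names, exons, introns and strands. Counts were tested in R 4.3.3 with edgeR 4.0.16 (filterByExpr, TMM, quasi-likelihood F-test over all 5038 features passing the filter, Benjamini-Hochberg adjustment), in 1 fit over 5 genotypes, which all share the wild-type libraries as control. A further fit took wild type as 2 sets, with a common dispersion of 0.00454 against 0.0948. DESeq2 1.42.0 was an alternative, and scripts were tested on simulated data. Tables and plots used Python 3.11.15, pandas 2.3.3, SciPy 1.17.1 and matplotlib 3.10.9. Ratios resting on 1 to 3 counts have exact 95% intervals.

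The members, the pathway list and the tests were chosen with earlier results of these data known. Named intervals are the 12 highest in wild type with both sets weighted equally; per mutant, the 8 largest falls and 6 largest rises among those called, at 10 CPM or more in the higher group, with no overlap between mutant and wild-type libraries; up to 3 each way for either comparison between mutants; and the 3 highest in each mutant. Replicate pairs differed beyond counting noise (chi-square over degrees of freedom 1.06 to 1.55 in 30 pairs). Libraries with the same letter showed no shared deviation, which counting noise could hide.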

Additional observations from a re-analysis of the deposited data

Results flagged for a closer look

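In 62 groups of samples examined, 3 samples stood apart from the rest of their group by Dixon's criterion, which chance gives in about 1 in 20 groups. For I:13957885-13958003, in an exon of Y71A12B.10, wild type C had 729 CPM, against 530.3 to 596 in the other libraries of the first set. For II:5100094-5100167, near C04G6.6, wild type C had 488 CPM against 339 to 386. For I:86089-86176, in an exon of Y48G1C.6, wild type A had 277 CPM against 132 to 203 in the other wild-type libraries.

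The log2 difference of mut-2 over mut-7 at I:13957885-13958003 was 2.68 by edgeR's test of that difference (adjusted p = 0.0209), with every mut-2 library above every mut-7 library and both below wild type.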

How the results depend on the processing

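Of 95 calls against wild type at named intervals, 84 kept their direction and call under every alternative run, 11 lost the call under at least 1 and 0 changed sign. Named intervals were picked in these data mostly for high levels or large changes without overlap. A high share kept was thus likely in advance and does not extend to the other members. The call between mut-2 and mut-7, lost without any of several libraries, is not among the 95. The 44 tested intervals became 5152 without a filter and 109 with a mean of 10 CPM. Without a filter the intervals lower in the dpf-3 null, DPF-3 S784A, mut-2 and mut-7 numbered 92, 53, 95 and 142, and with the mean CPM filter 56, 49, 73 and 74. For those higher in the null (0 as reported), counts were 9 when scaled to feature totals, 2 when scaled to all reads and 5 without a filter, and 1, 11 and 10 against the first wild-type set, the second and the mean of both. For DPF-3 S784A (1), they were 0 with DESeq2 size factors or the mean CPM filter, 10 with totals, 3 with all reads, 3 without a filter, and 3, 11 and 8 against the sets. For mut-7 (5), they were 13 with totals, 1 without a filter, 9 with the mean CPM filter, 13 against the second set and 12 against the mean of both. Between mut-2 and mut-7 (1 call) totals gave 3, all reads 2, no filter 4, DESeq2's test 4 and wild type as 2 sets 8, and between the dpf-3 genotypes the last gave 1. Between the wild-type sets (39), totals gave 25, all reads 19, no filter 95 and the mean CPM filter 66. Scaled to all reads, 77, 40 and 404 of all 5038 features were higher in the dpf-3 null, DPF-3 S784A and mut-7. Where no share over all features is given, here and below, the counts show only how calls moved between settings.

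With the replicate block, 28, 27, 31 and 32 intervals were lower in the mutants, 2 were higher in DPF-3 S784A and 3 in mut-7, 1 was called between the dpf-3 genotypes and 8 between mut-2 and mut-7. The block gave each replicate letter its own term, and each letter from D to I holds only a wild-type library. This fit thus compared the mutants with wild type A to C alone, so its counts do not isolate pairing by letter. Correlations of deviations between same-letter libraries were only -0.046 to 0.049. Much of the deviation between replicates is counting noise (chi-square over degrees of freedom 1.06 to 1.55), so a pairing by letter could be missed.

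The log2 ratio of the summed share to wild type was -0.07, 0.14, 1.33 and 0.13. Over all reads it was -0.80, -0.84, -0.51 and -1.20. Against the second set it was 0.32, 0.53, 1.73 and 0.53, and against the first it was -0.0256 in DPF-3 S784A and -0.0335 in mut-7. Without the 10 intervals highest in wild type it was -0.18, 0.32 and -0.37 in the last 3. The mut-7 value of IV:16312640-16312701 in rac-3 (-0.09, not called) turned to 1.33 with totals, 1.85 against the second set and 0.59 against the mean of both. The cause was not tested.

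With 1 library left out, the number of intervals passing the filter moved away from 44. It was 37 to 39 without a wild-type library and 49 to 60 without a mutant library. The counts below thus do not come from the same 44 intervals. Across these fits, intervals lower in the mutants numbered 21 to 32, 20 to 29, 26 to 40 and 25 to 38. Those higher in DPF-3 S784A numbered 0 to 1, in mut-2 8 to 11 and in mut-7 3 to 8. The mut-7 number was 3 without wild type B, D, E, F, G, H or I, with 37 to 39 tested. It was 8 without dpf-3 null C, DPF-3 S784A A or C or mut-2 B, with 57 to 60 tested. In these counts a changed filter and a missing library cannot be told apart. Calls between mut-2 and mut-7 numbered 0 to 2, the highest without wild type I, and between the wild-type sets 33 to 47. Alternatives that need the genome sequence were not run. Depth limited mut-2 most, where 3 counts were 46.7 CPM in the shallowest library.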
